A study of Mus musculus with 6 samples.

Results

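The interleukin 10 and 20 family was followed in mouse thymus through 9 genes of the 24054 in the count table, namely the cytokine genes Il10, Il19, Il20 and Il24 and the receptor chain genes Il10ra, Il10rb, Il20ra, Il20rb and Il22ra1. The genes were taken by symbol, and all 9 were found. The family was picked because Il19 and Il24 stood far higher in RANKL than in control thymus, so the difference between the groups is described here for the 9 genes without a test. The RANKL group (3 libraries) came from mice that carry both K5-rtTA and TetO-RANKL, where the keratin 5 promoter drives the doxycycline-dependent activator and basal epithelial cells are therefore the intended source of transgenic RANKL, a cytokine of the TNF family. The control group (3 libraries) came from monogenic mice, with the transgene they carry not named. Both groups received doxycycline in food and water. One text of the study gives 1 week of doxycycline from an age of 8 weeks and another gives 2 weeks from an age of 9 weeks. RNA came from thymus tissue without sorting of cells, so fewer cells of a type and less RNA per cell cannot be told apart.

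IL-10 limits inflammation and signals through a receptor made of IL-10RA, found mainly on blood cells, and the widely made chain IL-10RB. IL-19, IL-20 and IL-24 signal through IL-20RA paired with IL-20RB, and IL-20 and IL-24 also through IL-22RA1 paired with IL-20RB. IL-20RA, IL-20RB and IL-22RA1 are found mainly on epithelial cells such as keratinocytes, whereas the cytokines are made by myeloid cells and by keratinocytes themselves. IL-22, a relative from lymphocytes, uses IL-22RA1 with IL-10RB. All these receptors act through the kinases JAK1 and TYK2 and the factor STAT3, with SOCS3 as a feedback inhibitor.

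The 4 cytokine genes lie in a row on chromosome 1, within 142.9 kb (130882074 to 131024970, GRCm38, the assembly of mm10). Il24 (Entrez gene 93672, 130882074 to 130887411), Il20 (58181, 130906985 to 130911296) and Il19 (329244, 130932656 to 130945457) are read from the minus strand, and Il10 (16153, 131019845 to 131024970) from the plus strand. The receptor genes are scattered, with Il20ra on chromosome 10 (19711673 to 19760053), Il20rb on chromosome 9 (100457719 to 100486473), Il22ra1 on chromosome 4 (135728159 to 135755383), Il10ra on chromosome 9 (45253837 to 45269149) and Il10rb on chromosome 16 (91406157 to 91425834). A RefSeq promoter of GRCm38.p6, running from 250 bases before to 50 bases after a gene start, was matched for 5 members, namely Il19, Il20, Il20ra, Il20rb and Il22ra1. For Il19 and Il20ra the start used by that table lies inside the span of the gene given above. Shown are 2 pairs whose reads parted in these libraries, the neighbours Il19 (chr1:130940066-130940365, minus strand) and Il20 (chr1:130911247-130911546, minus strand), and the alternative receptor chains Il22ra1 (chr4:135727909-135728208, plus strand) and Il20ra (chr10:19712337-19712636, plus strand). They are written 5′ to 3′ on the gene's strand, and capitals mark matches on either strand to an NF-kB motif (GGGNNNNNCC), an AP-1 motif (TGANTCA) or a STAT motif (TTCNNNGAA).
Il19: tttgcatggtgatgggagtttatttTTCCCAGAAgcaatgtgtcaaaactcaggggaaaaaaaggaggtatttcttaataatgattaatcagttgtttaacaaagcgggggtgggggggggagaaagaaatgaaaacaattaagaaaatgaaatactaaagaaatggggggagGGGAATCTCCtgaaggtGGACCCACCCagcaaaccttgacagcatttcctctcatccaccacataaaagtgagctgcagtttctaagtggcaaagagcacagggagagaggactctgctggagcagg
Il20: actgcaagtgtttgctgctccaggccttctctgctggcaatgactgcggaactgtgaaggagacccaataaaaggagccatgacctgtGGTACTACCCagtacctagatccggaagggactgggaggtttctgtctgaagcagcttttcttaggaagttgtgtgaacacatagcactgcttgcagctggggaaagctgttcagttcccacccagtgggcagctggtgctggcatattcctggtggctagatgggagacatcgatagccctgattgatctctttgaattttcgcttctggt
Il22ra1: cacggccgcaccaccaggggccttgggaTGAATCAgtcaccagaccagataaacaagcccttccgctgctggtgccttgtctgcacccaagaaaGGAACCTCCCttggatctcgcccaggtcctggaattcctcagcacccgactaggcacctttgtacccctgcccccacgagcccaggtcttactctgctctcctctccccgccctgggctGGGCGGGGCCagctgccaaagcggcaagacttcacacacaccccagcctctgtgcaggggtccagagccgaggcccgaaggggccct
Il20ra: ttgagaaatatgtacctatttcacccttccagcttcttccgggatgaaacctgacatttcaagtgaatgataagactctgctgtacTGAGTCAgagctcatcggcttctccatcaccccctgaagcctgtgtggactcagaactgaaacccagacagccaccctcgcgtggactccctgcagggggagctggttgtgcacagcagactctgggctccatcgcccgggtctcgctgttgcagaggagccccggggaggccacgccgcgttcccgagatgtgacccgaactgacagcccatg
The Il19 window held 2 NF-kB matches, starting at -77 and -60 from the gene start, and 1 STAT match starting at -225. The Il20 window held 1 NF-kB match. Il22ra1 held 2 NF-kB matches and 1 AP-1 match, and Il20ra held 1 AP-1 match. A C/EBP motif (TTNNGNAA), not capitalised, had 2 matches in Il19, 1 in Il20ra and 0 in Il20 and Il22ra1. Il20rb, not shown, had 2 NF-kB and 3 C/EBP matches. Among 32851 promoter windows of the same length, 50.8% held the NF-kB motif, 7.81% the AP-1 motif, 8.30% the STAT motif and 40.7% the C/EBP motif, and in the 5 windows no match overlapped another. These matches describe letters and do not show that a factor binds.

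The libraries held 18254870 to 25357060 counted reads in RANKL and 18654395 to 21453466 in control. A floor of 3 reads in a library stood for 0.122 to 0.161 CPM in RANKL and 0.143 to 0.158 CPM in control, counting error only. CPM are reads scaled to a common library size, with TMM factors. Tnfsf11, the gene of RANKL, was at 3512 ± 1221 CPM in RANKL and 7.08 ± 1.57 CPM in control (mean ± SD, n = 3 each), and its counts do not separate the transgene from the mouse's own gene. Of 16096 genes tested with edgeR's quasi-likelihood test, 33.8% rose and 29.6% fell in RANKL (adjusted p below 0.05). Among lists of cell type markers, keratinocyte and basal epithelium markers were higher in 9 of 9 and medullary epithelium markers in 7 of 7. Macrophage and monocyte markers were higher in 8 of 8, neutrophil markers in 6 of 6, mast cell markers in 6 of 6 and fibroblast markers in 5 of 5. Markers listed for double-positive thymocytes, namely Cd4, Cd8a, Cd8b1, Rag1, Rag2, Ptcra and Dntt, fell in 7 of 7. Their summed levels were 181 to 807 CPM in RANKL against 8334 to 9485 CPM in control. Regulatory T cell markers were higher in 3 and lower in 1 of 5, and B cell markers were called in 0 of 5 by edgeR. Endothelial markers were higher in 3 of 4 and fat markers lower in 1 of 4. Parathyroid and thyroid markers were higher in 1 of 3 tested, with summed levels of 8.05 to 11.6 CPM in RANKL and 5.30 to 8.81 CPM in control. The parathyroid factor Gcm2 had 2, 4 and 7 reads in RANKL and 0 in control, too few to test. Pth, the parathyroid hormone gene, had 66, 81 and 23 reads in RANKL and 65, 98 and 38 in control and was not called. The filter on low counts asks for about 10 reads in at least 3 libraries. Lor, Sprr1b, Mmp8, Cxcr2, Ms4a2 and Tshr fell short of it in control and passed only through RANKL. For these markers a difference was a condition of being tested, so the marker counts are a description.

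Il24 and Il19 transcripts were abundant in RANKL thymus and close to absent in control thymus. Il24, which encodes a keratinocyte and myeloid cytokine, had 632, 5229 and 1368 reads in RANKL replicates 1, 2 and 3, and 3, 2 and 7 reads in control replicates 1, 2 and 3. In CPM these were 34.0, 213 and 64.5 in RANKL, against 0.158, 0.103 and 0.334 in control. Every RANKL library stood far above every control library. Il19, which encodes a ligand of the same receptor, had 294, 2664 and 897 reads in RANKL and 1, 2 and 0 reads in control. That was 15.8, 108 and 42.3 CPM in RANKL and 0.0527, 0.103 and 0 CPM in control. Both genes were highest in RANKL replicate 2 and lowest in RANKL replicate 1, and the groups did not overlap.

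The fitted log2 fold change was 8.96 ± 0.90 (SE) for Il24 and 9.94 ± 1.02 for Il19, which placed them at rank 21 and rank 7 of the 16096 genes tested. With 3 control reads, the size for Il19 rests on counting: the pooled ratio of RANKL over control was 1183, with a 95% exact interval of 405 to 5741 that covers counting error only. For Il24, with 12 control reads, it was 555 with an interval of 317 to 1074. Without RANKL replicate 2 the log2 fold changes were 7.90 for Il24 and 9.01 for Il19. Without control replicate 3 that of Il24 was 9.56, and without control replicate 2 that of Il19 was 10.78.

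Il20, which lies between Il24 and Il19, stayed near the floor. It had 1, 4 and 4 reads in RANKL and 1, 1 and 0 reads in control, or 0.0538, 0.163 and 0.189 CPM in RANKL against 0.0527, 0.0515 and 0 CPM in control. It did not pass the filter on low counts. The pooled ratio of RANKL over control was 4.14 with a counting interval of 0.858 to 39.4, so a difference was not detectable at this depth. Among the reads of the 4 neighbouring genes, 966, 8081 and 2320 in RANKL libraries and 6, 11 and 15 in control libraries, Il20 had 9 in all of RANKL and 2 in all of control.

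Il10, the anti-inflammatory cytokine at the end of the row, was higher in RANKL but there far below Il24 and Il19. It had 39, 184 and 51 reads in RANKL and 1, 6 and 8 in control, which were 2.10, 7.48 and 2.40 CPM in RANKL and 0.0527, 0.309 and 0.382 CPM in control. The groups did not overlap, and RANKL replicate 2 was again the highest. The log2 fold change was 3.97 ± 0.72, or 3.13 without RANKL replicate 2. Its pooled ratio of RANKL over control was 16.8, with a counting interval of 10.02 to 30.5.

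**Figure D1:**
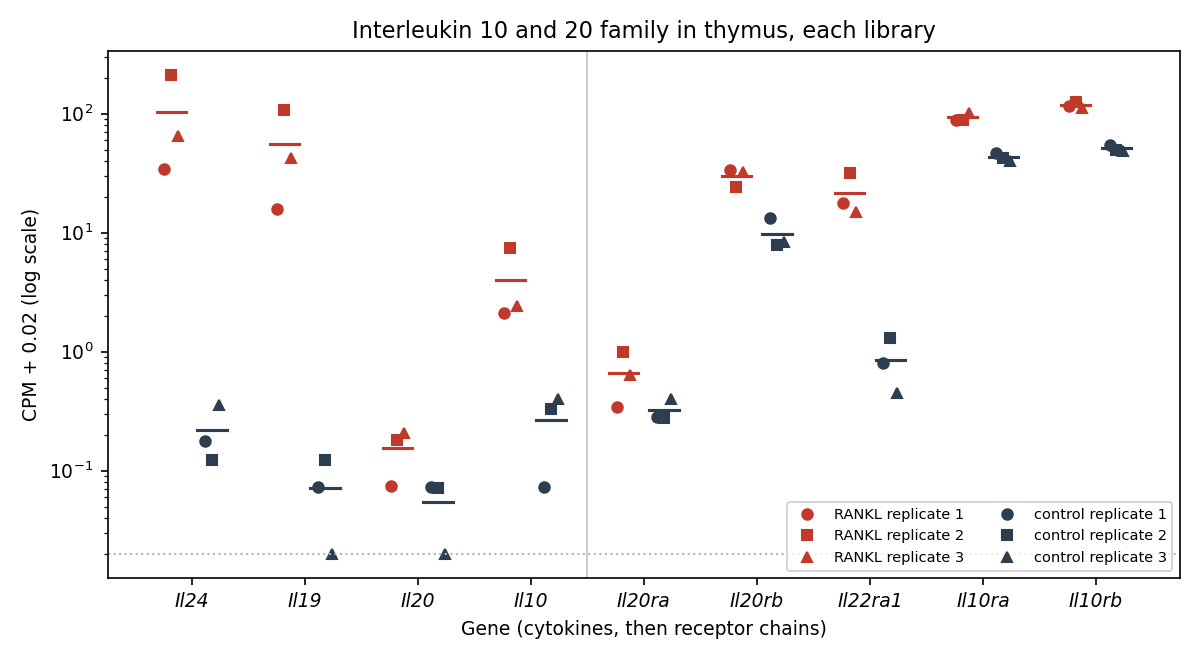
CPM of each of the 9 genes in each library, on a log axis after adding 0.02 so that libraries with 0 reads can be drawn (dotted line), with RANKL on the left and control on the right of each gene and short bars at the group means. Il24 and Il19 reach 213 and 108 CPM in RANKL and stay under 1 CPM in control, Il20 is low in both groups, and Il10ra and Il10rb hardly vary within a group.

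The relation between Il19 and Il24 varied less among the RANKL libraries than the level of either gene, and was not the same in all of them. Il19 had 46.5, 50.9 and 65.6 reads for every 100 Il24 reads in RANKL replicates 1, 2 and 3, while the totals of the 4 genes differed widely. Per kilobase of exon, Il24 made up 61.4%, 60.5% and 54.5% of the level of the row in those libraries and Il19 made up 34.5%, 37.2% and 43.1%. Il10 made up 4.01%, 2.25% and 2.15%, and Il20 under 1% in each. The control libraries had too few reads for such shares.

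Genes next to the row did not move in a single direction. RefSeq lists 25 other genes within 300 kb of the row, of which 15 were in the count table and 13 were tested. By edgeR 5 were higher, 2 lower and 6 not called, beside 33.8% higher and 29.6% lower among all genes tested, so the count of higher genes is near that of the whole table. Pigr, which encodes the receptor that carries IgA across epithelium, was at 616 ± 268 CPM in RANKL and 4.804 ± 3.43 CPM in control, a log2 fold change of 7.01 ± 0.58 (edgeR adjusted p = 1.46e-05), or 7.72 without control replicate 1. Fcamr, an Fc receptor for IgA and IgM, rose by 4.59 ± 0.64 on the log2 scale, and by 3.84 when RANKL replicate 1 was left out. AA986860 rose by 3.94 ± 0.37 and C4bp, a complement regulator, by 3.41 ± 0.53. Mapkapk2, a kinase of the p38 pathway and the nearest tested gene beyond Il10, rose by 1.08 ± 0.18. Fcamr, with 10, 15 and 4 control reads, and C4bp, with 3, 4 and 5, passed the filter on low counts only through RANKL. For both a difference was a condition of being tested, so their place among the 5 higher genes is a description. The edgeR adjusted p-value was 2.43e-05 for AA986860 and 0.000548 for Mapkapk2.

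Faim3 (also named Fcmr), which encodes an IgM receptor and borders Il24 on the other side from Il20, was at 9.31 ± 2.77 CPM in RANKL and 9.72 ± 2.31 CPM in control, a log2 fold change of -0.06 ± 0.30 (edgeR adjusted p = 0.861). The sign of this value was not fixed: it was 0.05 with upper-quartile factors and between 0.02 and 0.13 without RANKL replicate 1 or 2 or control replicate 1 or 3. Rassf5, a lymphocyte adhesion gene, fell by 1.33 (edgeR adjusted p = 0.000291). Yod1, a deubiquitinase, had a log2 fold change of -0.77 ± 0.30 (edgeR adjusted p = 0.0441). Its call was lost without any of RANKL replicates 1, 2 and 3 (0.0911, 0.054 and 0.161) or control replicates 1 and 2 (0.0869 and 0.139), and with 4 other settings. Pfkfb2, Dyrk3, Eif2d, Ikbke and Srgap2 were not called, at log2 fold changes of 0.32, 0.90, -0.31, -0.44 and -0.15. Dyrk3 passed the threshold without RANKL replicate 3 (0.0351) and with 3 other settings, and Ikbke without control replicate 1 (0.0409) and with no filter (0.0381). Zp3r and C4bp-ps1 had too few reads to test. Yod1 overlaps Pfkfb2, and Eif2d overlaps Rassf5, so their reads may be shared. The chromosome 1 members overlap no other RefSeq gene.

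**Figure D2:**
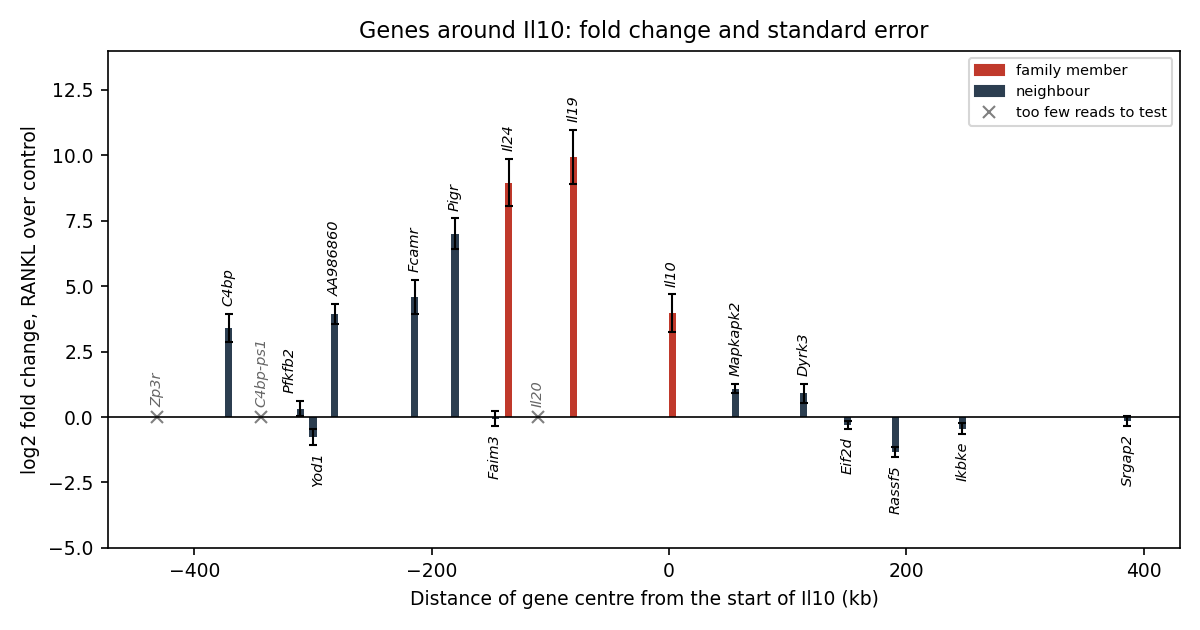
Log2 fold change of RANKL over control, with its standard error, for genes placed by the distance of their centre from the start of Il10 in kb. Family members are red and neighbours dark, and crosses mark genes with too few reads. Il24 and Il19 are tall on both sides of the untested Il20, Faim3 beside Il24 is at -0.06, and Pigr, further out, is at 7.01.

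The receptor chains differed from each other in how far RANKL and control stood apart. Il22ra1, the chain that IL-20, IL-24 and IL-22 share, stood furthest apart, at 17.7, 32.0 and 14.8 CPM in RANKL replicates 1, 2 and 3 and 0.791, 1.29 and 0.430 CPM in control replicates 1, 2 and 3. The groups did not overlap. The log2 fold change was 4.68 ± 0.46, which is 25.7-fold. Its alternative, Il20ra, had 6, 24 and 13 reads in RANKL and 5, 5 and 8 in control, or 0.323, 0.976 and 0.613 CPM in RANKL and 0.264, 0.258 and 0.382 CPM in control. These groups overlapped, and Il20ra did not pass the filter on low counts. Its pooled ratio of RANKL over control was 2.20, with a counting interval of 1.24 to 4.05, and it overlaps the predicted gene Gm33332, so reads of the pair may be shared.

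Il20rb, the partner of both chains, was at 33.7, 24.1 and 32.2 CPM in RANKL and 13.2, 7.94 and 8.31 CPM in control, a log2 fold change of 1.61 ± 0.25. The groups did not overlap, and here RANKL replicate 2 was the lowest of its group. Il10ra, the chain specific to IL-10, was at 88.9, 89.3 and 102 CPM in RANKL and 46.4, 42.7 and 39.8 CPM in control, a log2 fold change of 1.12 ± 0.15. Il10rb, shared by the IL-10 and IL-22 receptors, was at 117, 126 and 113 CPM in RANKL and 54.6, 49.8 and 48.7 CPM in control, a log2 fold change of 1.21 ± 0.14. Neither gene's groups overlapped, and the libraries of each group lay close together. Il10ra overlaps the microRNA gene Mir7086.

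Of the 9 members, 7 passed the filter on low counts, which asks for about 10 reads in at least 3 libraries. Il24, Il19, Il10 and Il22ra1 fell short of that in control and passed only through their RANKL libraries, so a difference between the groups was a condition of their being tested and no count of calls over the members is given. Of all genes tested, 33.8% were called higher and 63.4% were called in either direction. Every RANKL library was above every control library in these 7 members, against 36.1% of all genes tested. Il20, which was not tested, had the same order, but only library scaling gave it. RANKL replicate 1 and control replicates 1 and 2 each had 1 read of Il20 (0.0538, 0.0527 and 0.0515 CPM). Since the family was picked on this contrast, these counts are a description. Against all genes tested, 0.0373% had a larger log2 fold change than Il19, 0.124% than Il24, 2.63% than Il22ra1, 4.57% than Il10, 21.1% than Il20rb, 26.3% than Il10rb and 27.6% than Il10ra.

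The numbers in the sample titles fall into 3 ranges, and within those that held both groups the 7 tested members had the same direction. That follows from their groups not overlapping, so the values below are a description and no check on the title number. In the range with RANKL replicate 1 and control replicate 1, the control library had 3 reads of Il24, 1 of Il19 and 1 of Il10, at or under the floor of 3 reads, against 632, 294 and 39 reads in the RANKL library, so no ratio is given for them. The ratio of CPM of RANKL over control there was 22.3 for Il22ra1, 2.56 for Il20rb, 1.91 for Il10ra and 2.14 for Il10rb. In the range with RANKL replicates 2 and 3 and control replicate 3 it was 414 for Il24, 12.9 for Il10, 54.5 for Il22ra1, 3.39 for Il20rb, 2.41 for Il10ra and 2.45 for Il10rb. Il19 had 0 reads in that control library. Control replicate 2 was alone in its range. The labels do not say what the number stands for.

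Levels of different genes can be set side by side per kilobase of exon. In RANKL the order was Il24 at 74.8 ± 68.9 CPM per kb, Il19 at 48.3 ± 41.5, Il10rb at 31.1 ± 1.82, Il10ra at 26.7 ± 2.18, Il22ra1 at 8.37 ± 3.58, Il20rb at 7.13 ± 1.23, Il10 at 3.05 ± 2.31, Il20ra at 0.262 ± 0.135 and Il20 at 0.114 ± 0.0603 (mean ± SD, n = 3). In control the order was Il10rb at 13.4 ± 0.818 CPM per kb, Il10ra at 12.3 ± 0.953, Il20rb at 2.33 ± 0.695, Il22ra1 at 0.326 ± 0.168, Il10 at 0.189 ± 0.132, Il24 at 0.143 ± 0.0872, Il20ra at 0.124 ± 0.0289, Il19 at 0.0452 ± 0.0449 and Il20 at 0.0293 ± 0.0254. By these means Il24 and Il19 headed the RANKL order and stood sixth and eighth in the control order, but their lead in RANKL rested on replicate 2. Without that library the RANKL means were 35.5 CPM per kb for Il24, 30.1 for Il10rb, 27.3 for Il10ra and 25.3 for Il19. In RANKL replicate 1, Il10rb (30.6) and Il10ra (25.4) both stood above Il24 (24.5) and Il19 (13.8).

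Several neighbours in these orders were not apart. In RANKL the library ranges of Il24 and Il19 overlapped, although Il24 was above Il19 in 3 of 3 libraries. Those of Il19 and Il10rb overlapped, with Il19 above in 2 of 3 libraries. Those of Il22ra1 and Il20rb overlapped, with Il22ra1 above in 1 of 3, against the order of the means. Those of Il20ra and Il20 overlapped, with Il20ra above in 3 of 3. With the longest transcript in place of merged exons, Il20rb (10.7 CPM per kb) came before Il22ra1 (8.37). In control the ranges of Il10rb and Il10ra overlapped, as did those of Il22ra1 and Il10, Il10 and Il24, Il24 and Il20ra, and Il19 and Il20.

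The balance between the chains that pair with IL-20RB also differed between the groups. Per kilobase, Il22ra1 was 51.7, 31.0 and 22.9 times Il20ra in RANKL replicates 1, 2 and 3, and 2.84, 4.73 and 1.06 times in control replicates 1, 2 and 3, where both genes had few reads. Il20rb was 1.17, 0.459 and 1.33 times Il22ra1 in RANKL and 10.2, 3.76 and 11.8 times in control. The ratio of Il10rb to Il10ra lay between 1.01 and 1.30 in RANKL and between 1.07 and 1.12 in control.

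**Figure D3:**
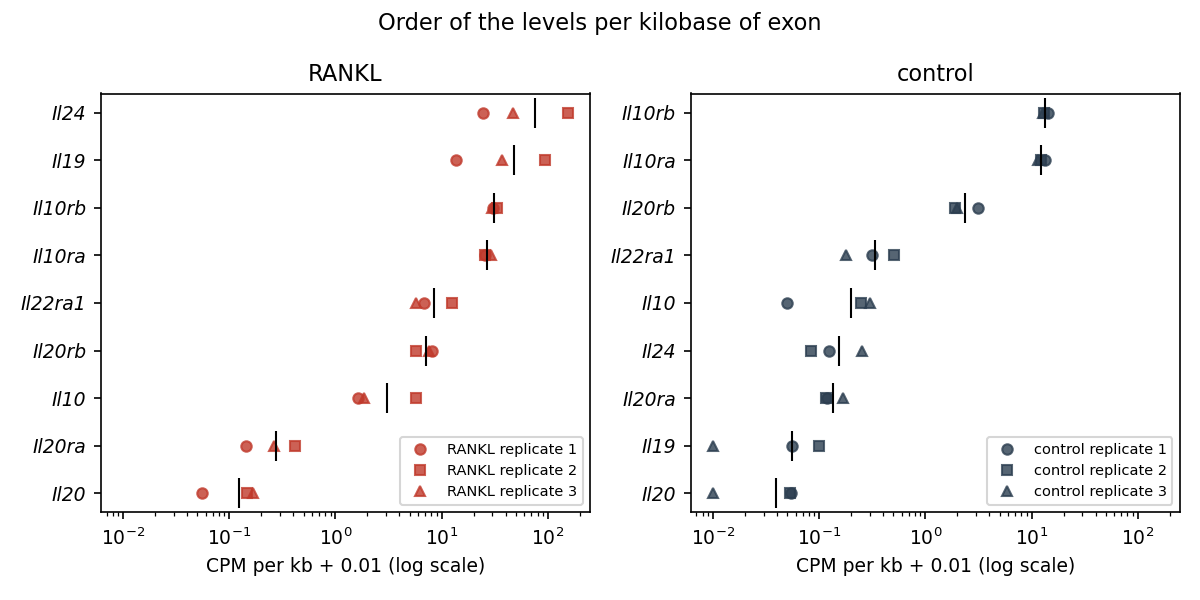
Level of each gene in CPM per kb of merged exon plus 0.01, on a log axis, in RANKL (left) and control (right), with genes ordered by the group mean (black tick) and 1 symbol per library. Il24 and Il19 have the highest means in RANKL with a wide spread, and in RANKL replicate 1 both lie below Il10rb and Il10ra, while Il10rb and Il10ra lead in control with little spread.

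The RANKL libraries were unlike each other in the cytokines and alike in the IL-10 receptor chains. The range of log2 CPM over the 3 RANKL libraries was 2.77 for Il19, 2.64 for Il24 and 1.79 for Il10, wider than in 99.6%, 99.5% and 97.2% of all genes tested. It was 1.10 for Il22ra1, 0.48 for Il20rb, 0.20 for Il10ra and 0.16 for Il10rb, wider than in 86.9%, 53.3%, 18.2% and 12.6% of genes. The highest RANKL library held 6.85 times the CPM of the lowest for Il19 and 6.25 times for Il24.

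Some marker sums had the order of these cytokines among the RANKL libraries and others did not. Summed neutrophil markers were 1883, 4470 and 2280 CPM in RANKL replicates 1, 2 and 3 and 14.96 to 35.6 CPM in control. Summed macrophage and monocyte markers were 1308, 2325 and 1421 CPM in RANKL and 245 to 333 CPM in control. Keratinocyte and basal epithelium markers summed to 3901, 5976 and 4030 CPM in RANKL and 487 to 628 CPM in control. For these lists, as for Il24, Il19 and Il10, RANKL replicate 2 was the highest and replicate 1 the lowest. That order was not particular to them. Medullary epithelium and endothelial markers had it too, as did fat markers, which summed to 434, 682 and 511 CPM in RANKL and 346 to 804 CPM in control.

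Medullary epithelium markers summed to 1853, 2065 and 1861 CPM in RANKL and 251 to 305 CPM in control, and varied little among RANKL libraries. Regulatory T cell markers were 325, 300 and 353 CPM in RANKL and 148 to 188 CPM in control, and B cell markers 87.6, 43.1 and 110 CPM in RANKL and 101 to 110 CPM in control. Mast cell markers were 69.4, 58.4 and 70.2 CPM in RANKL and 28.0 to 34.5 CPM in control. For these 3 lists RANKL replicate 2 was the lowest. Fibroblast markers were 4174, 5717 and 2899 CPM in RANKL and 335 to 399 CPM in control, and endothelial markers 215, 304 and 223 CPM in RANKL and 175 to 208 CPM in control. None of the markers of these 10 lists that the table holds was at 0 reads in all libraries of a group. The part of cell composition in the family's differences was not tested. Tnfsf11 itself was at 3334, 4812 and 2390 CPM in RANKL, so its order among the RANKL libraries differs from that of Il19 and Il24.

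**Figure D4:**
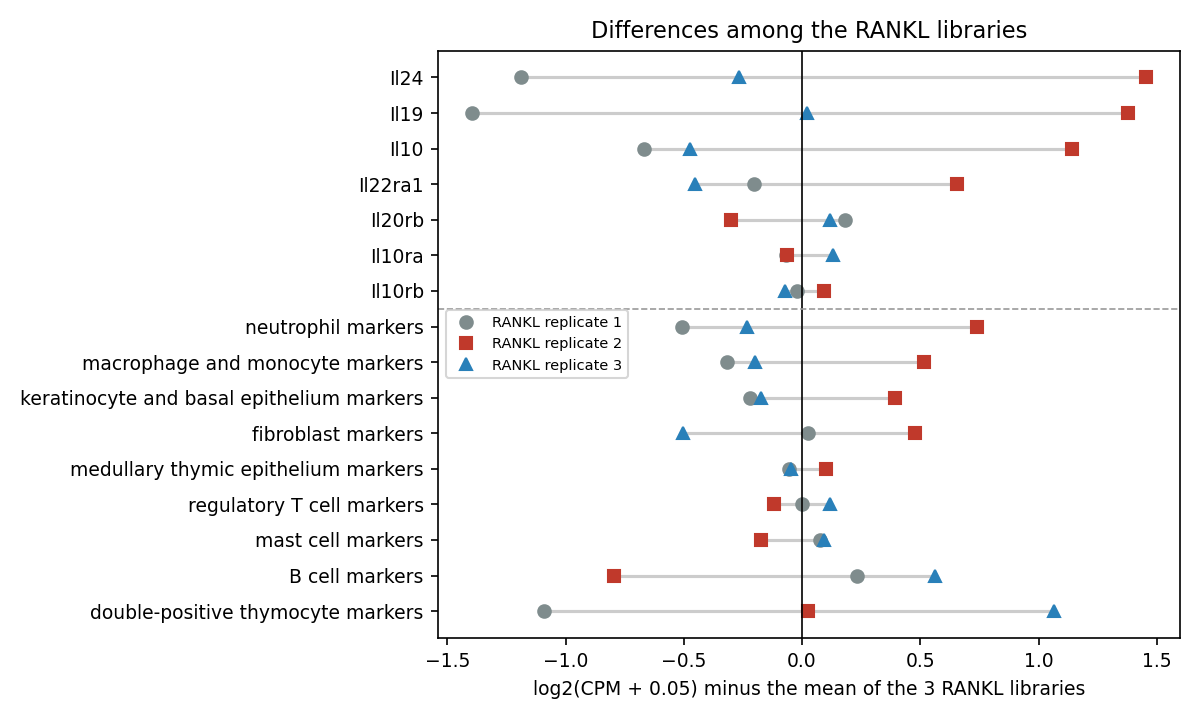
Log2 of CPM plus 0.05 in each RANKL library, minus the mean of the 3 RANKL libraries, for 7 family members (above the dashed line) and for the summed CPM of marker lists (below it). RANKL replicate 2 lies to the right for Il24, Il19, Il10 and Il22ra1 and for neutrophil, macrophage, keratinocyte, fibroblast and, by less, medullary epithelium markers, while Il10ra and Il10rb lie close to 0 in all 3 libraries.

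Genes with the most similar profile were sought by the root mean square difference of centred log2 CPM over the 6 libraries, a description that the group difference dominates. For Il24 they were Sprr2f (0.264), Sprr2e (0.378) and Sprr2h (0.416), small proline-rich precursors of the cornified envelope whose near-identical copies may share reads. For Il19 they were Trem1 (0.367), a receptor of neutrophils and monocytes, Csta1 (0.392), a stefin, and Sprr2h (0.404). The nearest profiles of both cytokines thus include genes of the cornified envelope. For Il10 they were Htr2b (0.369), a serotonin receptor, Il33 (0.387), an epithelial alarmin, and Fst (0.390), follistatin. For Il22ra1 they were Fbn2 (0.132), Eps8l1 (0.189) and Fut2 (0.197), a fucosyltransferase. For Il20rb they were Npas2 (0.0973), a clock factor, and Tcf7l1 (0.123). For Il10ra they were Man2b1 (0.0371), a lysosomal mannosidase, Arhgef40 (0.0764) and Dennd3 (0.0855), and for Il10rb Plekhf1 (0.0497), Scpep1 (0.0579) and Maged1 (0.0591). The receptor chains matched their nearest genes more closely than the cytokines did. Few genes changed as far as Il19 and Il24 (rank 7 and 21), and the cytokines had few control reads. These distances therefore cannot be compared between members as a sign of regulation.

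Lists of related genes outside the family were read beside it. Their member counts by edgeR stand next to the 33.8% of all genes that were higher and the 29.6% that were lower, and their medians next to a median log2 fold change of -0.02 over all genes tested. Some listed genes had too few control reads for the filter and passed it only through their RANKL libraries. For those a difference was a condition of being tested, so the counts and medians of the lists are a description. Of 11 other class II cytokines and receptors 9 were tested, of which 5 rose, 1 fell and 3 were not called (median 1.23). Il22 had 74, 287 and 96 reads in RANKL and 10, 5 and 3 in control, so it passed the filter only through RANKL. Its log2 fold change was 4.44 ± 0.62, or 3.79 without RANKL replicate 2 and 5.02 without control replicate 1. Its near-identical copy Iltifb had 0, 5 and 1 reads in RANKL and 0 in control. Il22ra2, the soluble decoy receptor for IL-22, was not called, at 0.17 ± 0.72, with 10, 7 and 16 reads in RANKL and 19, 5 and 3 in control. Its value turned to -0.14 without RANKL replicate 3 or control replicate 2 and to -0.28 without control replicate 3, and was 1.34 without control replicate 1.

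The interferon lambda gene Ifnl2 rose by 3.05 ± 0.66 on the log2 scale (3.85 when control replicate 1 was left out), and its near-identical copy Ifnl3 had 26, 10 and 45 reads in RANKL and 2, 0 and 0 in control. Ifnlr1, which pairs with IL-10RB for interferon lambda, rose by 1.68 ± 0.31 and F3, tissue factor, by 2.76 ± 0.17. Ifngr2 rose by 1.23 ± 0.15 while Ifngr1, its partner in the interferon gamma receptor, fell by 1.44. Ifnl2, with 5, 1 and 2 control reads, passed the filter only through RANKL. EdgeR adjusted p-values of Ifnlr1, F3, Ifngr2 and Ifngr1 ran from 4.79e-06 to 0.00112. Ifnar1 and Ifnar2 were not called, at -0.15 and 0.26; with upper-quartile factors Ifnar2 passed the threshold (0.0438).

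Of 13 JAK-STAT and feedback genes 5 were higher, 2 lower and 6 not called, and the median was 0.28 (0.08 when RANKL replicate 2 was left out, 0.17 when control replicate 1 was). Stat3, the main factor of these receptors, was at 609 ± 9.79 CPM in RANKL and 220 ± 34.0 CPM in control (log2 fold change 1.47 ± 0.17, edgeR adjusted p = 7.87e-05). Socs3 was at 259 ± 81.5 CPM in RANKL and 24.8 ± 4.72 CPM in control, which is 10.4-fold (edgeR adjusted p = 9.95e-06). Cish rose by 2.83 ± 0.18, Jak2 by 1.13 ± 0.20 and Pias3, an inhibitor of STAT3, by 0.78 ± 0.17. Jak1 fell by 0.59 and Stat5b by 2.13. Tyk2 was at 60.5 ± 7.70 CPM in RANKL and 60.5 ± 7.09 CPM in control and was not called. Stat5a (-0.26), Socs1 (-0.33), Ptpn2 (0.28) and Ptpn11 (-0.12) were not called either.

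Of 13 genes that IL-10 raises in macrophages 11 were higher and 0 lower, with a median of 1.80. The smallest p-values were those of Il1rn, the IL-1 receptor antagonist, Fcgr1, Hmox1, heme oxygenase, and Bcl3. Il1rn had 5315, 16557 and 12162 reads in RANKL and 144, 81 and 119 in control, Fcgr1 was 8.70-fold, Hmox1 8.25-fold and Bcl3 4.74-fold higher, with edgeR adjusted p-values from 4.61e-06 to 9.88e-06. Etv3 and Ddit4 were not called, at 0.19 and -0.21, and Zfp36 (0.66) lost its call without RANKL replicate 2 (0.0596), control replicate 2 (0.0767) or control replicate 3 (0.0888) and with the title number range as a block (0.111). Other cytokines raise many of these genes too, and macrophage markers, which include Fcgr1, were higher in 8 of 8.

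Of 13 genes that ligands of the IL-20 receptors and IL-22 raise in keratinocytes, as known mainly from human cells, 13 were higher, with a median of 6.91. Among those that passed the filter only through RANKL were Cxcl5, Defb4, Defb14, Mmp10 and S100a7a, with at most 4 reads in any control library. Krt6b, with 15, 19 and 5 control reads, passed it only through RANKL as well. Krt6b, Lcn2, Cxcl5 and Krt16 had the smallest p-values. The edgeR adjusted p-value was 3.64e-06 for Lcn2 and 5.72e-06 for Krt16. For Krt6b and Cxcl5 a difference was a condition of being tested, so no p-value is given. Krt16, a keratin of activated epidermis, was at 566 ± 285 CPM in RANKL and 5.73 ± 1.75 CPM in control. Lcn2, a siderophore-binding protein, was at 940.2 ± 314 CPM in RANKL and 4.37 ± 1.90 CPM in control. The log2 fold change was 9.54 ± 0.52 for Krt6b and 11.10 ± 0.65 for Cxcl5, a neutrophil chemokine, or 10.47 without RANKL replicate 2. S100a8 and S100a9 stand in the neutrophil marker list as well, and neutrophils also make Lcn2. The part of neutrophils in this list's difference was not tested.

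Of 8 genes of keratinocyte differentiation that the same ligands lower in cultured human keratinocytes 7 were tested, and 7 of 7 were higher, with a median of 4.30. Krt10 was at 106 ± 19.5 CPM in RANKL and 15.5 ± 6.78 CPM in control (log2 fold change 2.78 ± 0.29). Krtdap rose by 4.30 ± 0.34 and Calm4 by 4.71 ± 0.28. Lor rose by 3.85 ± 0.60, or 4.98 without control replicate 1, Krt1 by 4.06 ± 0.46, or 4.81, and Dsc1 by 5.22 ± 0.74, or 6.88, without the same library. Ivl, involucrin, had 319, 3159 and 622 reads in RANKL and 17, 19 and 8 in control, and rose by 6.28 ± 0.85, or 4.96 without RANKL replicate 2. Lor, Dsc1 and Ivl had too few control reads for the filter and passed it only through RANKL, so a difference was a condition of their being tested. EdgeR adjusted p-values of Krt10, Krtdap, Calm4 and Krt1 ran from 4.55e-06 to 6.08e-05. Both keratinocyte lists stood beside keratinocyte and basal epithelium markers that were higher in 9 of 9, and Krt6a of the raised list and Lor, Krt1 and Krt10 of the lowered list belong to those markers too.

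Of 10 cytokines that induce Il19, Il20 or Il24 in skin or myeloid cells 8 were tested and 8 were higher, with a median of 3.57. Il17a and Il6, with at most 8 reads in any control library, passed the filter only through RANKL. Il1b had 2673, 14393 and 7093 reads in RANKL and 127, 83 and 74 in control, a log2 fold change of 6.20 ± 0.54. Osm rose by 3.72 ± 0.45, Il6 by 4.52 ± 0.61, Il13 by 3.20 ± 0.34, Tnf by 1.19 ± 0.25 and Il1a by 3.42 ± 0.42, or 2.83 without RANKL replicate 2. Among RANKL libraries, Il1a, Il1b and Osm were highest in replicate 2 and lowest in replicate 1, the order of Il19 and Il24. The other 5 tested cytokines of the list were highest in replicate 3, namely Il6, which was nearly as high in replicate 2 (8.34 and 8.30 CPM), Tnf, Il4, Il13 and Il17a, of which Il13 and Il17a were lowest in replicate 2. Il17a had 16, 19 and 34 reads in RANKL and 0, 0 and 4 in control, and rose by 3.89 ± 0.87, with a fitted 7.47 without control replicate 3, the one control library that had reads. Il4 rose by 1.70 ± 0.47 (edgeR adjusted p = 0.0106), but was not called without RANKL replicate 3 (0.0536) or with the title number range as a block (0.0669). Il17f (8, 12 and 22 reads in RANKL, 3, 5 and 2 in control) and Il31 (13, 10 and 21 in RANKL, 1, 2 and 1 in control) were not tested.

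Of 10 transcription factors known to regulate Il10 in lymphocytes or myeloid cells 7 were higher, 2 lower and 1 not called, with a median of 1.64. Bhlhe40, a repressor of Il10 in T cells, was at 376 ± 102 CPM in RANKL and 25.7 ± 5.25 CPM in control. Nfil3 was at 63.8 ± 14.3 CPM in RANKL and 7.98 ± 2.18 CPM in control. Prdm1 rose by 2.54 ± 0.25, Ahr by 1.98 ± 0.22 and Maf by 1.43 ± 0.25. EdgeR adjusted p-values of these 5 genes ran from 5.83e-06 to 0.000829. Gata3 and Creb1 fell by 1.94 and 1.83, and Batf was not called, at 0.41. Irf4 was called at 0.70 ± 0.26 (edgeR adjusted p = 0.0403), a call lost without RANKL replicate 1 or 3 (0.112 and 0.0628) or control replicate 2 or 3 (0.142 and 0.131) and with limma-voom (0.0554).

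**Figure D5:**
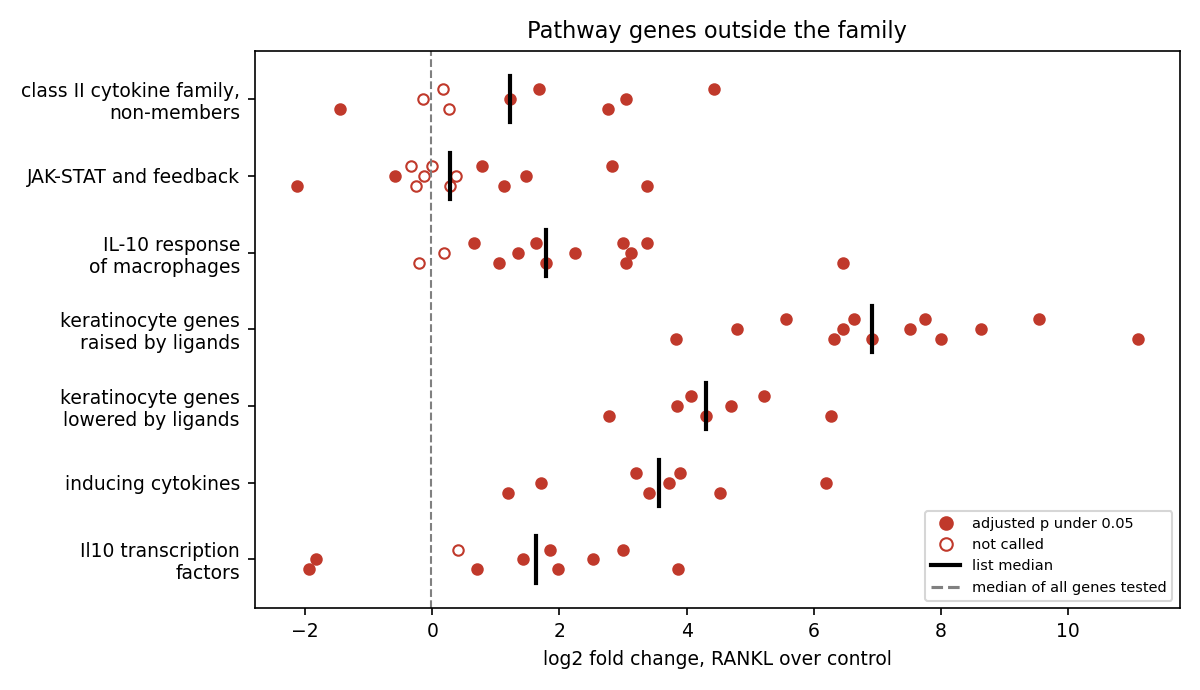
Log2 fold change of RANKL over control for each tested gene of 7 lists outside the family, with filled points for an edgeR adjusted p under 0.05, open points for genes not called, a black bar at each list's median and a dashed line at the median of all genes tested. The keratinocyte genes raised by the ligands lie furthest to the right, with a median of 6.91, and the JAK-STAT genes lie on both sides of 0.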

How the data were processed

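RNA of thymus tissue was sequenced in 3 RANKL and 3 control libraries. Per the labels' protocols, stranded mRNA libraries were made from total RNA. The deposited values are unnormalised read counts, 1 whole number for each gene and library. STAR and mm10 were used, per the submitters' processing notes. The sources used here do not give the version, counter, strand setting or annotation. Gene coordinates were those of RefSeq for GRCm38, the assembly of mm10, and exon lengths those of GENCODE M21.

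Counts were filtered with filterByExpr, scaled by TMM and tested on all genes with edgeR 4.0.16 (R 4.3.3; robust quasi-likelihood fit, two-sided, without covariates), with Benjamini-Hochberg adjustment over 16096 genes. The threshold was 0.05. Standard errors were derived from the F statistic. The prior count for log2 CPM was 2. The code was tested on simulated counts. Libraries of the same group differed from each other by more than sampling noise (chi-square per degree of freedom 31.7 to 67.9). Replicates are numbered by accession and pair nothing. Since no label states that each library is a separate animal, p-values cover only the spread among these libraries, which may be technical. Pooled ratios and their intervals, and floors, cover counting error only.

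The members and gene lists were chosen with earlier results of these data known. Text names the members, listed genes (4 with the smallest p where over 8 of a list moved one way), all genes near the row, Tnfsf11 and the 3 nearest profiles per tested member. Flg was not found in the table, nor was Ly6g, and Adgre1 was matched as Emr1. Alternatives were other scaling factors, 2 other filters, a fit without robust estimation, DESeq2 1.42.0, limma-voom (limma 3.58.1), a block for the title number range, each library left out, and transcript length (chosen after seeing the data). Alignment of proteins was not done. Values of 3 genes that the rule would name are not reported here, and the list counts include those that belong to a list. Figures used matplotlib 3.10.9.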

Additional observations from a re-analysis of the deposited data

How the results depend on the processing

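The 7 tested members kept their direction under all settings run. Their groups did not overlap and the family was picked on this contrast, so the kept direction is a description. With 1 library left out the log2 fold change ran from 7.90 to 9.56 for Il24, from 9.01 to 10.78 for Il19, from 3.13 to 4.41 for Il10, from 4.28 to 5.11 for Il22ra1, from 1.45 to 1.86 for Il20rb, from 1.05 to 1.19 for Il10ra and from 1.17 to 1.28 for Il10rb. Il10rb was at 1.32 with upper-quartile factors and at 1.13 with no filter. Upper-quartile factors moved the median log2 fold change of all genes to 0.08, against -0.02. With the longest transcript as length, Il20rb was at 10.7 CPM per kb in RANKL and 3.51 in control, and Il10rb at 42.4 in RANKL and 18.3 in control. Counts of all genes called and of list members called stayed within 1.5 times under all settings. With no filter Il20 and Il20ra had log2 fold changes of 1.77 ± 1.15 and 0.99 ± 0.62. No paired analysis was possible because the labels give no replicate numbers; the block for the title number range gave 8.40 for Il24 and 10.52 for Il19. Depth limits Il20, Il20ra and the control levels of Il19 and Il24, where few reads set the size of a ratio.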
